A study of Mus musculus with 8 samples.

Results

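Cytochrome c and cytochrome c oxidase form the last steps of the mitochondrial respiratory chain, and the germ line of the testis carries its own versions of several of these proteins beside the somatic ones. The genes described here are 5 pairs taken from a list of symbols, Cyct with Cycs, Cox6b2 with Cox6b1, Cox7b2 with Cox7b, Cox8c with Cox8a and Cox4i2 with Cox4i1, which makes 10 genes of the 56748 in the count table. All 10 passed the filter on low counts, among 21805 genes tested. The samples are adult testes of mice, with 4 RNA-seq libraries of genotype Ak9-/- by their labels, called labelled knockouts here, and 4 of wild type. Strain, exact age and the removed stretch of Ak9 are not given in the sources available. Since the labels do not tie each library to an animal of its own, a p-value below reflects library-to-library spread, part of which can be technical.

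Cytochrome c shuttles electrons from the bc1 complex to cytochrome c oxidase and, once released into the cytosol, helps to start apoptosis. Cytochrome c oxidase passes the electrons to oxygen and pumps protons, with a core made by mitochondrial genes and small nuclear-encoded subunits around it, of which some exist as tissue isoforms. In male germ cells the testis isoforms come on during meiosis and stay on in spermatids and sperm, while spermatogonia and the somatic cells of the testis use the somatic isoforms.

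The isoforms of a pair are separate genes with little shared sequence. Among GENCODE M21 transcripts the coding sequences of Cyct and Cycs, each for 105 residues, were 76.8% identical, and the longest run of bases shared by any transcripts of that pair was 14 bases. Identity was 51.6% for Cox6b2 and Cox6b1, 65.1% for Cox7b2 and Cox7b, 51.5% for Cox8c and Cox8a and 62.9% for Cox4i2 and Cox4i1, with shared runs of 9 to 14 bases. A read longer than that matches, without mismatches, at most one isoform of a pair. Annotated copies at 95% identity or more over at least 80% of the copy were found for Cycs (3 copies) and Cox7b (2 copies), and held counts equal to 0.342% and 1.44% of the parent's. The exons of Cox4i1 overlap those of Emc8 on the other strand. Emc8 averaged 23.2 ± 3.50 CPM (library-size-scaled counts, by the TMM method) in labelled knockouts, against 23.0 ± 1.73 in wild types (SD, n = 4 each).

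The genes lie apart in the genome. In GENCODE M21 (GRCm38) Cyct and Cox4i2 are on chromosome 2, Cycs is on chromosome 6, Cox6b2 and Cox6b1 are on chromosome 7, Cox7b2 is on chromosome 5, Cox7b is on chromosome X, Cox8c is on chromosome 12, Cox8a is on chromosome 19 and Cox4i1 is on chromosome 8. RefSeq promoter windows on GRCm38.p6, from 250 bases before to 50 bases after the gene start, were matched for 7 of the 10 genes. No window was matched for Cox8c, Cox4i1 and Cox4i2. Both promoters of the cytochrome c pair and of the COX6B pair are shown as examples of pairs whose isoforms moved apart in some libraries (below). The COX7B and COX8 pairs also moved apart in some libraries and are not printed. Cyct is at chr2:76360404-76360703 and Cycs at chr6:50566520-50566819, Cox6b2 is at chr7:4753045-4753344 and Cox6b1 at chr7:30626065-30626364, all on the minus strand and printed along the gene. Capitals mark TGACGT, the core of the site bound by CREB and CREM proteins, and the CCAAT box, each searched on both strands.
Cyct: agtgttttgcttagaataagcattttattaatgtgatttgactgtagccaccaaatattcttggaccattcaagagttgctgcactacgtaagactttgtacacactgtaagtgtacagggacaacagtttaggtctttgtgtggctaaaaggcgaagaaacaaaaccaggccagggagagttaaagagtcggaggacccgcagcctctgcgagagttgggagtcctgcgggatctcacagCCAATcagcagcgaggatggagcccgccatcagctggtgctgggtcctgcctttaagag
Cycs: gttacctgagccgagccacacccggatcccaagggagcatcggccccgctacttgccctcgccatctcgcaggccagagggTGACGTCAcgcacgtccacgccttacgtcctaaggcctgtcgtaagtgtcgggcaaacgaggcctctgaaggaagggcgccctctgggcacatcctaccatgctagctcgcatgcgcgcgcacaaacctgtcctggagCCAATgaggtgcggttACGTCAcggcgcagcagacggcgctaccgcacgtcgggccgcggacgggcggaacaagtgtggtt
Cox6b2: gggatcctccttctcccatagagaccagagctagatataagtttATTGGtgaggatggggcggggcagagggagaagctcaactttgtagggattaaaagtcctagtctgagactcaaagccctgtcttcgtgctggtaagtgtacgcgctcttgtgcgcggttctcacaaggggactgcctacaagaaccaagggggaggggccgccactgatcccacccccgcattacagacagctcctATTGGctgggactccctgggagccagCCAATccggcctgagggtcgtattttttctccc
Cox6b1: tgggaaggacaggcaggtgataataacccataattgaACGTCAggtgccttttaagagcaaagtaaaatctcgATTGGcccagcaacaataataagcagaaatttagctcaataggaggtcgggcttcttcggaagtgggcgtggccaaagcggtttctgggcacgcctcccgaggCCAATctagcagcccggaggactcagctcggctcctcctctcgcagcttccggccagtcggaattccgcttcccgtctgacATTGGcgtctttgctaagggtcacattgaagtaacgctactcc

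TGACGT was found in the windows of 3 of the 4 somatic isoforms with a window (3 matches in Cycs, of which 2 overlap within 1 TGACGTCA, and 1 match each in Cox6b1 and Cox8a, with 0 in Cox7b). It was found in 0 of the 3 testis isoforms with a window (Cyct, Cox6b2 and Cox7b2). Of 32851 RefSeq promoter windows of this length, 7.51% held TGACGT and 37.4% held CCAAT, which all 7 windows shown or matched here had at least once. The Cycs window had 32 CpG dinucleotides and the Cyct window 8, against a median of 7 over all windows. The 7 windows were also searched on both strands for a single 10-base pattern for NRF1 (0 matches, in 4.60% of all windows). Sites that depart from this pattern were not counted, so the 0 matches do not show that a window lacks an NRF1 site. In the same search CCGGAAG had 1 match in Cox6b1 and 2 in Cox8a (in 8.86% of all windows). TATAAA had 1 match, in Cox7b2 (in 13.6% of all windows). These matches describe the letters in the window only.

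Ak9, the gene named on the labels, checks those labels only in part. Its transcript stood at 69.3, 116, 101 and 40.6 CPM in libraries labelled knockout 1 to 4, against 108, 115, 122 and 107 CPM in wild types 1 to 4 (two-sided exact permutation p = 0.143). Library totals were 18062780 to 24415587 counts, and a count of 0 allows at most 0.166 CPM in the shallowest library, taking 3 counts as the limit for counting error alone. The libraries labelled knockout were less alike than the wild types, with pairwise Spearman correlations across genes of 0.957 to 0.977 among the libraries labelled knockout and 0.991 to 0.993 among wild types. Labelled knockouts 3 and 4 held epididymis transcripts, with a summed level over 10 epididymis genes of 217 and 37.0 CPM, against at most 6.47 CPM in labelled knockouts 1 and 2 and 7.41 to 9.73 CPM in wild types. Most of these 2 sums came from Crisp1, at 185 and 24.4 CPM, against at most 0.534 CPM in wild types. Only 2 of the 10 epididymis genes passed the filter on low counts, with a median log2 fold change of -0.32. Because of these points, groups are called by their labels.

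All 4 pairs with a known germ line isoform held more counts of the testis isoform than of the somatic one in every library, except the cytochrome c pair in labelled knockout 3. Per base of exon (TPM, a length-scaled level), Cox8c was the most abundant of the 10 genes at a median of 1805 TPM over the 8 libraries. Cox7b2 followed at 683 TPM, Cox6b2 at 511 TPM, Cox4i1 at 403 TPM and Cyct at 281 TPM. The remaining somatic isoforms were lower, with medians of 124 TPM for Cox8a, 109 TPM for Cox6b1, 41.7 TPM for Cycs and 17.6 TPM for Cox7b. Cox4i2 was lowest at 2.69 TPM. Neighbours in this order did not overlap in their 8 values except Cox6b2 with Cox4i1 (449 to 546 against 358 to 500 TPM) and Cox8a with Cox6b1 (72.3 to 173 against 70.3 to 124 TPM). The median ratio per length was 38.8 for Cox7b2 over Cox7b, 14.7 for Cox8c over Cox8a, 6.65 for Cyct over Cycs and 4.46 for Cox6b2 over Cox6b1. These ratios rest on annotated exon lengths, which for Cycs (3404 bases) is much above that of Cyct (655 bases), and by counts alone the Cyct to Cycs ratio was 1.15 to 1.29 in wild types.

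The COX4 pair does not follow the heading of somatic and testis isoforms. Cox4i2, an isoform known from lung and from low oxygen, had 19, 14, 26 and 14 counts in labelled knockouts 1 to 4 and 23, 12, 21 and 10 counts in wild types 1 to 4. Cox4i1, the general isoform, had 4127 to 5634 counts in labelled knockouts, against 4355 to 4952 in wild types. The COX4 of these testes was thus almost wholly Cox4i1 at the transcript level, with Cox4i2 at 0.572% or less of the pair's counts in every library. The muscle isoform Cox8b, a further relative of Cox8a and Cox8c, had 1 count in labelled knockout 2 and 0 in the other libraries.

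**Figure D1:**
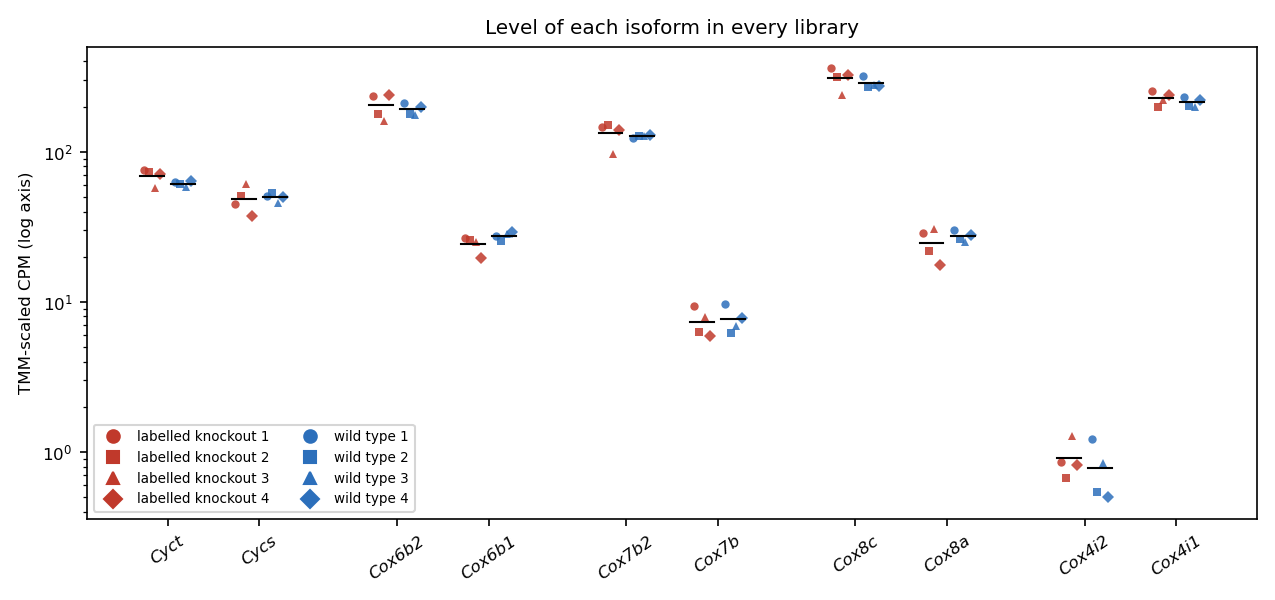
TMM-scaled CPM on a log axis for the 10 isoforms, with libraries labelled knockout in red on the left and wild types in blue on the right of each gene, a point per library and a bar at the group mean. The triangles of labelled knockout 3 lie lowest among libraries labelled knockout for Cyct, Cox6b2, Cox7b2 and Cox8c and highest for Cycs and Cox8a, and the diamonds of labelled knockout 4 lie lowest for Cycs, Cox6b1, Cox7b and Cox8a.

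No isoform passed the test between the groups, which does not show that their levels were equal. Of 21805 genes tested with edgeR's quasi-likelihood test, 0.0183% were called at an adjusted p under 0.05, and 0 of the 10 isoforms were among them (edgeR adjusted p = 1.00 for each, smallest unadjusted p = 0.119, for Cyct). At an unadjusted p under 0.05 edgeR had 0 of the 10, against 3.04% of all genes. DESeq2 and limma-voom also called 0 of the 10, where they called 0.211% and 0.0183% of all genes. The groups overlapped for all 10 isoforms, while they did not overlap for 2.30% of the genes tested. The median log2 fold change, labelled knockout over wild type, was 0.11 for the 5 testis-side genes and -0.05 for the 5 somatic ones, beside 0.01 over all genes tested.

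Cyct, the testis cytochrome c, had 75.4, 73.9, 57.5 and 71.0 CPM in labelled knockouts 1 to 4, against 62.5, 60.6, 58.2 and 64.3 CPM in wild types 1 to 4. Labelled knockouts 1, 2 and 4 were above every wild type and labelled knockout 3 was just below them (log2 fold change 0.18, SE 0.11). Such places were common on this scale. Of all genes tested, 32.5%, 26.3% and 34.0% were above every wild type in labelled knockouts 1, 2 and 4. In labelled knockout 3, 36.1% were below every wild type. These shares also apply to the genes described below. Cycs, the general cytochrome c, had 44.9, 50.9, 61.0 and 37.5 CPM in labelled knockouts 1 to 4, against 50.5, 52.8, 45.8 and 49.8 CPM in wild types 1 to 4. Here labelled knockout 3 was the highest of the 8 libraries and labelled knockout 4 the lowest, and the group means nearly met (log2 fold change -0.03, SE 0.14).

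COX6B sits on the outer face of the oxidase, where it joins the monomers of the dimer near the site at which cytochrome c docks. Cox6b2, its testis form, had 236, 179, 162 and 240 CPM in labelled knockouts 1 to 4, against 213, 179, 176 and 199 CPM in wild types 1 to 4. Cox6b1, the general form, had 26.8, 25.9, 25.2 and 19.7 CPM in labelled knockouts 1 to 4, against 27.5, 25.4, 28.4 and 29.0 CPM in wild types 1 to 4. On this scale labelled knockout 4 combined the highest Cox6b2 with the lowest Cox6b1 of the 8 libraries. Scaled by total counts alone, Cox6b2 was higher in labelled knockout 1, at 220 CPM, than in labelled knockout 4, at 216 CPM. The log2 fold changes were 0.09 (SE 0.14) for Cox6b2 and -0.18 (SE 0.12) for Cox6b1.

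COX7B and COX8 are small membrane-spanning subunits. Cox7b2 had 145, 151, 96.4 and 140 CPM in labelled knockouts 1 to 4, against 125 to 129 CPM in the 4 wild types, so that the wild types lay close together with 3 of the labelled knockouts above them and labelled knockout 3 below (log2 fold change 0.07, SE 0.13). Cox7b had 9.33, 6.32, 7.94 and 5.89 CPM in labelled knockouts 1 to 4, against 9.67, 6.24, 6.96 and 7.85 CPM in wild types 1 to 4, from 101 to 207 counts in a library. Per length it was the least abundant of these 4 somatic partners, and its wild-type spread was the widest of them, at 19.3% of the mean.

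Cox8c had 359, 317, 240 and 324 CPM in labelled knockouts 1 to 4, against 322, 271, 278 and 276 CPM in wild types 1 to 4. Labelled knockout 3 was again below every wild type, and wild type 1 stood above the other wild types (log2 fold change 0.11, SE 0.13). Cox8a had 28.8, 21.8, 30.8 and 17.7 CPM in labelled knockouts 1 to 4, against 30.0, 26.4, 25.0 and 27.9 CPM in wild types 1 to 4. Labelled knockout 4 was at 64.8% of the wild-type mean and labelled knockout 3 at 113% (log2 fold change -0.14, SE 0.17). In the COX4 pair, Cox4i1 averaged 229 ± 23.6 CPM in labelled knockouts, against 214 ± 15.7 in wild types, and Cox4i2 0.908 ± 0.262 and 0.779 ± 0.338 CPM (SD, n = 4 each). Their log2 fold changes were 0.10 (SE 0.11) for Cox4i1 and 0.23 (SE 0.35) for Cox4i2.

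The ratio of 2 genes within a library does not depend on how the library is scaled, and the ratios showed that the libraries labelled knockout parted in opposite directions. There were 1.68, 1.45, 0.943 and 1.89 Cyct counts per Cycs count in labelled knockouts 1 to 4, against 1.24, 1.15, 1.27 and 1.29 in wild types 1 to 4. Labelled knockouts 1, 2 and 4 were above every wild type and labelled knockout 3 was below every wild type. In labelled knockout 3 the 95% counting interval of 0.871 to 1.02 (Wilson interval of the share, turned into a ratio) lay below the lowest wild-type interval, 1.06 to 1.24. In labelled knockout 4 the interval of 1.72 to 2.08 lay above the highest wild-type interval, 1.19 to 1.40. Intervals of this kind cover counting error only.

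The COX8 pair gave the same arrangement. The Cox8c to Cox8a ratio was 12.5, 14.5, 7.78 and 18.3 in labelled knockouts 1 to 4, against 10.7, 10.3, 11.1 and 9.88 in wild types 1 to 4. The span between labelled knockouts 4 and 3 was 1.23 on the log2 scale, and the span among wild types was 0.17. The Cox6b2 to Cox6b1 ratio was 8.81, 6.89, 6.42 and 12.2 in labelled knockouts 1 to 4, against 7.75, 7.05, 6.22 and 6.85 in wild types 1 to 4. For COX6B labelled knockout 4 again stood highest, while labelled knockout 3, at 6.42, had wild types on both sides. The Cox7b2 to Cox7b ratio was 15.6, 23.8, 12.1 and 23.9 in labelled knockouts 1 to 4, against 12.9, 20.5, 18.2 and 16.5 in wild types 1 to 4. Labelled knockout 3 was lowest here too, with a counting interval, 10.3 to 14.2, that overlapped those of wild types 1 and 4 and of labelled knockout 1.

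The Cox4i2 to Cox4i1 ratio was 0.00337, 0.00339, 0.00575 and 0.00339 in labelled knockouts 1 to 4, against 0.00528, 0.00266, 0.00424 and 0.00225 in wild types 1 to 4. Labelled knockout 3 was highest in this pair, from 26 Cox4i2 counts, and its interval of 0.00392 to 0.00844 overlapped those of the other libraries. The SD of the log2 ratio was 0.37 in labelled knockouts, against 0.55 in wild types, where counting alone gives 0.35 and 0.38. For Cyct and Cycs the SD was 0.44 in labelled knockouts, against 0.07 in wild types, where counting alone gives 0.06 in both. For Cox8c and Cox8a it was 0.52 and 0.07, where counting alone gives 0.07 and 0.06. The SD was 7.13 times the counting error in labelled knockouts, against 1.25 times in wild types, for Cyct over Cycs, and 7.48 times against 1.17 times for Cox8c over Cox8a. For Cox6b2 over Cox6b1 it was 5.92 times in labelled knockouts, against 2.05 times in wild types, and for Cox7b2 over Cox7b 3.84 times against 2.43 times, so that wild types also varied beyond counting error in these pairs. Over all genes tested, the median SD of a single gene's log2 level was also wider in labelled knockouts, at 0.30, against 0.13 in wild types. Ratios of gene pairs drawn from all genes were not taken, so the wider spread cannot be called particular to these pairs.

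**Figure D2:**
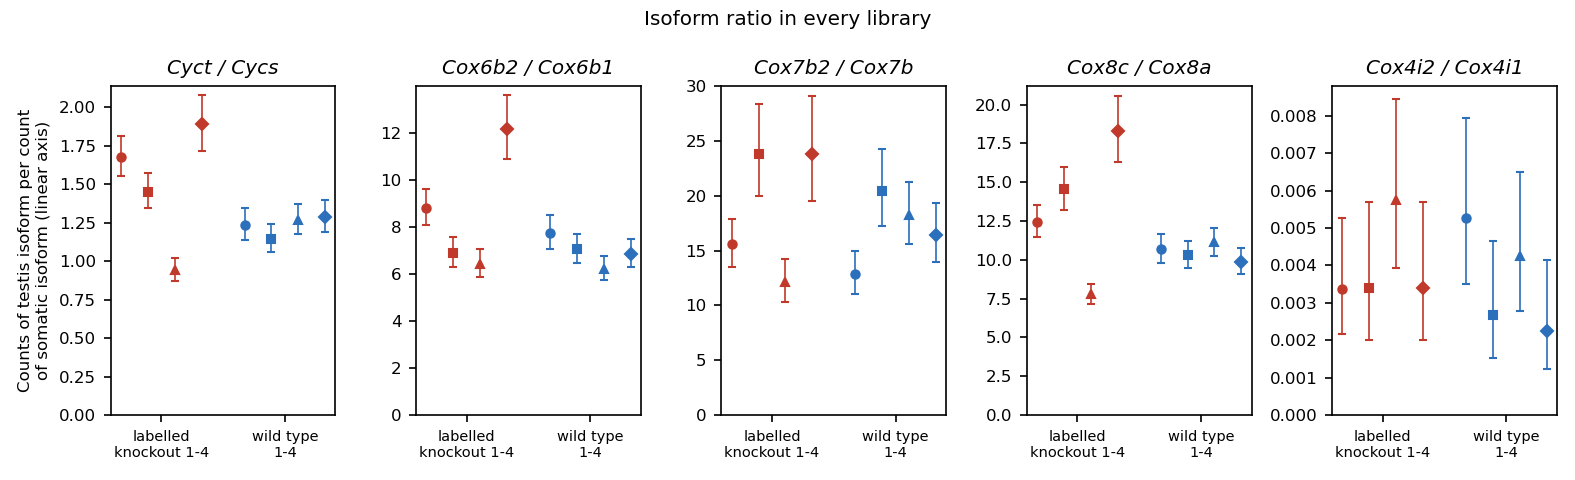
Counts of the testis-side isoform per count of the somatic isoform on linear axes, for the 5 pairs, with labelled knockouts 1 to 4 in red on the left and wild types 1 to 4 in blue on the right and bars for the 95% counting interval. In the Cyct/Cycs and Cox8c/Cox8a panels the wild types sit close together, labelled knockout 3 lies below them (0.943 and 7.78) and labelled knockouts 1, 2 and 4 above.

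None of the 5 ratios differed between the groups beyond the spread between libraries. The difference in mean log2 ratio, labelled knockout minus wild type, was 0.23 (SE 0.22) for Cyct over Cycs, 0.26 (SE 0.22) for Cox6b2 over Cox6b1, 0.11 (SE 0.28) for Cox7b2 over Cox7b, 0.27 (SE 0.26) for Cox8c over Cox8a and 0.18 (SE 0.33) for Cox4i2 over Cox4i1. The two-sided exact permutation p was 0.371, 0.286, 0.743, 0.371 and 0.600 in that order, with n = 4 per group and 0.0286 as the smallest value possible. After adjustment over the 5 ratios the exact permutation p was 0.619 to 0.743. Without labelled knockout 3 the Cyct to Cycs difference was 0.43 and the Cox8c to Cox8a difference 0.51, each with an exact permutation p = 0.0286, the smallest that 3 against 4 libraries can give, and 0.0714 after adjustment over the 5 ratios. Since labelled knockouts 1, 2 and 4 already lay above every wild type in both pairs, leaving out labelled knockout 3 fixes this p at its smallest value, and it is no further evidence of a difference. Without labelled knockout 3 the differences were 0.38 for COX6B and 0.30 for COX7B (exact permutation p = 0.114 and 0.286).

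Which isoform of a pair moved depends on the scaling for labelled knockout 3 and less so for labelled knockout 4. On TMM-scaled CPM, labelled knockout 3 was below every wild type for 4 of the 5 testis-side genes, beside 36.1% of all genes tested, and above every wild type for 2 of the 5 somatic ones, beside 33.5%. RLE scaling gave the same counts, beside 36.4% and 33.2%. Per total count it was below for 2 testis-side genes, beside 26.7% of all genes tested, and above for 3 somatic ones, beside 46.7%. In TPM it was below for 1 testis-side gene, Cox7b2, beside 21.2% of the tested genes with a length, and above for all 5 somatic ones, beside 56.0%. Cyct in labelled knockout 3 was at 93.7% of the wild-type mean in TMM-scaled CPM, 104% per total count and 112% in TPM, while Cycs was at 123%, 136% and 147%.

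In labelled knockout 4 the somatic partners were low on each of these scales. It was below every wild type for Cycs, Cox6b1, Cox7b and Cox8a, 4 of the 5 somatic genes, under TMM, RLE, total-count and TPM scaling, beside 33.9%, 33.7%, 48.7% and 52.1% of all genes in that order of scalings. Cycs was at 75.5% of the wild-type mean in TMM-scaled CPM, 67.2% per total count and 65.5% in TPM, and Cox8a at 64.8%, 57.8% and 56.4%. The testis isoforms of labelled knockout 4 were above every wild type for 4 of 5 genes in TMM-scaled CPM, beside 34.0% of all genes, and under RLE scaling, beside 34.4%, but for 1 of 5 per total count and in TPM, beside 19.7% and 16.6%. Cox8c, for example, was at 113%, 101% and 98.4% of the wild-type mean.

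**Figure D3:**
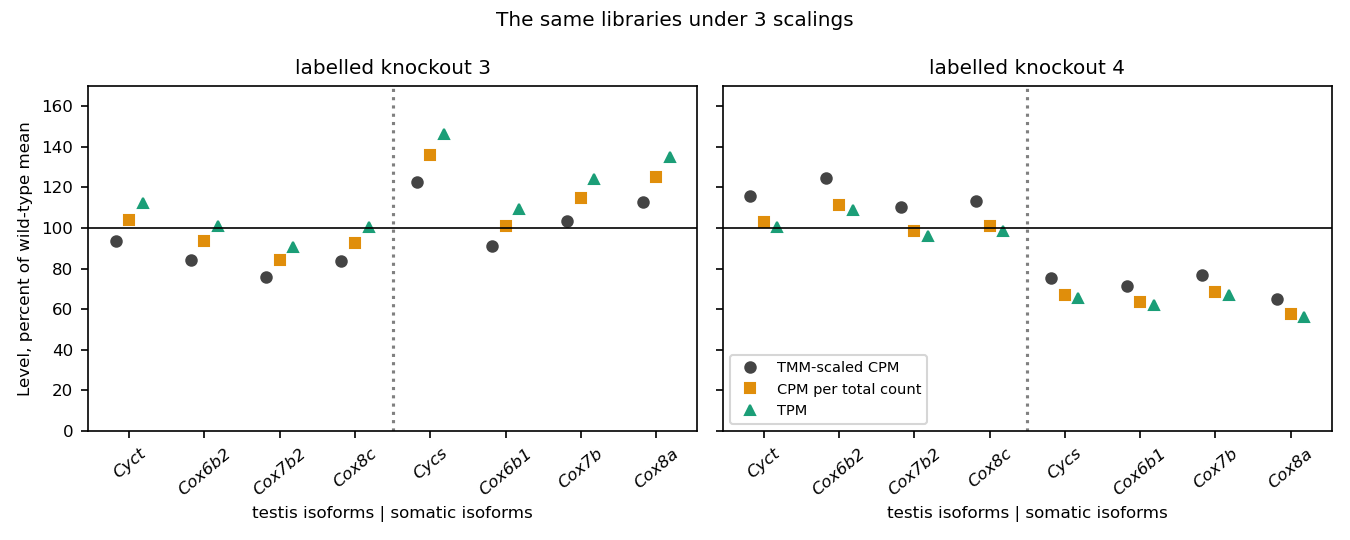
Level in labelled knockout 3 (left panel) and labelled knockout 4 (right panel) as a percent of the wild-type mean, for 4 testis and 4 somatic isoforms under 3 scalings, with the line at the wild-type mean. In labelled knockout 4 the somatic isoforms lie between 56.4% and 76.7% under each scaling, and in labelled knockout 3 Cox7b2 lies below the line under each scaling, Cyct, Cox6b2 and Cox8c lie below or above it according to the scaling, and Cycs, Cox7b and Cox8a lie above it under each.

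Marker genes of germ and somatic cells also differed between the libraries labelled knockout, and their values stand here beside the ratios. In bulk tissue fewer cells of a type and less RNA per cell cannot be told apart. The score of a list is the mean log2 level of its genes minus the wild-type mean, and all listed genes were detected. Scores and summed levels were taken on TMM-scaled CPM only. Unlike the ratios, they depend on the scaling of a library, and other scalings were not tried for them. Elongating spermatid genes (13 of 13 tested) scored 0.40, 0.09, -0.83 and 0.47 in labelled knockouts 1 to 4, with summed levels of 9459 to 23030 CPM in labelled knockouts, against 15001 to 18694 CPM in wild types. Round spermatid genes (12 of 12) scored 0.41, 0.28, -0.74 and 0.25, with sums of 823 to 1788 CPM in labelled knockouts, against 1209 to 1437 CPM in wild types.

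Labelled knockout 3 thus had the lowest score of the 8 libraries in both spermatid lists, and the lowest ratio in 3 of the 5 isoform pairs. Sertoli cell genes (12 of 12 tested) scored -0.25, -0.04, 0.46 and -0.44 in labelled knockouts 1 to 4, with sums of 1068 to 2044 CPM in labelled knockouts, against 1470 to 1637 CPM in wild types. Spermatogonial genes (10 of 10) scored -0.39, -0.03, 0.15 and -0.29, with sums of 174 to 263 CPM in labelled knockouts, against 209 to 235 CPM in wild types. Leydig cell genes (11 of 11) scored -0.40, -0.56, -0.18 and -0.86, with sums of 1053 to 2065 CPM in labelled knockouts, against 1891 to 2242 CPM in wild types.

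Labelled knockout 4, the lowest of the 8 libraries for 4 of the 5 somatic isoforms (Cox4i1 excepted), had the lowest Sertoli and Leydig scores of the 8 libraries. The lowest spermatogonial and macrophage scores were instead in labelled knockout 1, at -0.39 and -0.42, against -0.29 and -0.37 in labelled knockout 4. Spermatocyte genes (12 of 12 tested) varied less, with scores of -0.07, 0.11, 0.09 and -0.05 in labelled knockouts 1 to 4 and sums of 2204 to 2565 CPM in labelled knockouts, against 2132 to 2484 CPM in wild types. Peritubular and stromal genes (11 of 11) scored -0.02, 0.44, 0.45 and -0.32, with sums of 205 to 395 CPM in labelled knockouts, against 235 to 319 CPM in wild types. Endothelial genes (7 of 7, summed level 34.6 to 37.7 CPM in labelled knockouts, against 36.8 to 43.6 CPM in wild types), macrophage genes (7 of 7, 84.4 to 124 and 112 to 131 CPM) and skeletal muscle genes (2 of 6 tested, 3.36 to 4.05 and 3.50 to 4.65 CPM) completed the lists. The part of these cell markers, and of the epididymis genes, in the isoform ratios was not tested.

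**Figure D4:**
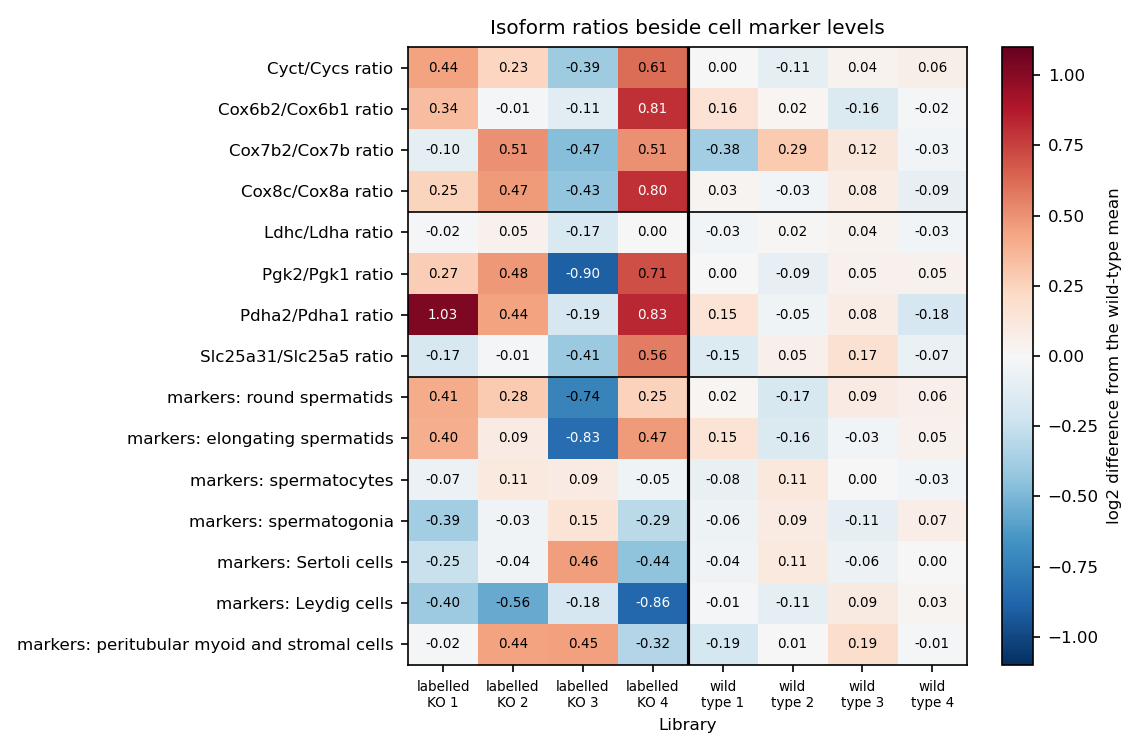
Log2 difference of each library from the wild-type mean, for the ratios of 4 isoform pairs, 4 other testis over somatic pairs and 7 lists of cell markers, with red for higher and blue for lower. The marker lists are on TMM-scaled CPM and depend on that scaling. Labelled knockout 3 is below 0 in all 8 ratios and in both spermatid lists and above 0 for Sertoli cell genes, and labelled knockout 4 is between 0.51 and 0.81 for the ratios of the 4 isoform pairs.

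Other gene pairs with a testis form gave similar orders of libraries in some cases. The Pgk2 to Pgk1 ratio, for the sperm and general forms of a glycolytic enzyme, was 42.6, 49.1, 18.9 and 57.6 in labelled knockouts 1 to 4, against 33.2 to 36.4 in wild types. The Pdha2 to Pdha1 ratio, for the pyruvate dehydrogenase subunit, was 48.8, 32.5, 20.98 and 42.6 in labelled knockouts 1 to 4, against 21.01 to 26.6 in wild types. The Slc25a31 to Slc25a5 ratio, for ADP/ATP carriers, was 1.48, 1.65, 1.26 and 2.46 in labelled knockouts 1 to 4, against 1.50 to 1.87 in wild types. The Ldhc to Ldha ratio, for lactate dehydrogenase, was 3.33, 3.49, 3.00 and 3.36 in labelled knockouts 1 to 4, against 3.30 to 3.47 in wild types, and moved least. Labelled knockout 3 had the lowest ratio of the 8 libraries in all 4 of these pairs. For Pdha2 to Pdha1 it was nearly level with wild type 4. No test of a difference between pairs was made.

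The rest of the oxidase and the partners of cytochrome c showed no called gene, beside 0.0183% of all genes tested. At that share, an absence of calls says little about lists of this size. Of the other cytochrome c oxidase subunits 0 of 12 tested were called in either direction, with a median log2 fold change of 0.00. Cox7a2l, a factor that joins the oxidase to the bc1 complex, had 54.8, 70.3, 51.9 and 87.6 CPM in labelled knockouts 1 to 4, against 60.5, 56.1, 34.9 and 34.1 CPM in wild types 1 to 4 (log2 fold change 0.51, SE 0.22, edgeR adjusted p = 1.00). The mitochondrially encoded core subunit mt-Co3 was at 7.12 ± 1.67 CPM in labelled knockouts, against 8.61 ± 0.832 in wild types, and the muscle-type Cox7a1 at 1.29 ± 0.314 and 1.58 ± 0.210 CPM (SD, n = 4 each). All 13 listed subunits summed to 6226 to 7876 CPM in labelled knockouts, against 6338 to 7686 CPM in wild types. Why mt-Co3 held so little of that sum was not tested, so its values compare the groups only.

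Of the assembly genes 0 of 23 tested were called, beside 0.0183% of all genes tested, with a median log2 fold change of 0.04. Coa6, which helps to deliver copper, was at 8.87 ± 0.931 CPM in labelled knockouts, against 7.49 ± 1.01 in wild types, Pet100 at 16.1 ± 3.72 and 13.2 ± 2.58 CPM and Coa3 at 17.8 ± 1.53 and 15.8 ± 1.27 CPM (SD, n = 4 each). Of the bc1 complex, heme lyase and apoptosome genes 0 of 16 were called, beside the same share of all genes, with a median log2 fold change of 0.00. Casp9, the caspase that cytochrome c helps to activate, was at 13.3 ± 1.94 CPM in labelled knockouts, against 14.5 ± 0.961 in wild types. The bc1 subunits Uqcrb and Uqcrfs1 were at 44.4 ± 5.66 and 120 ± 16.2 CPM in libraries labelled knockout, against 41.5 ± 4.00 and 113 ± 3.26 CPM in wild types (SD, n = 4 each).

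The genes most alike to each testis-side isoform from library to library were picked from 14473 candidate genes. Likeness was measured as Pearson's r of log2(CPM + 0.5) over the 8 libraries, which share the scaling, and is given as a description. Picking the highest r from so many genes over 8 libraries can give high values by selection alone. No chance level was taken, so these r values do not show that the genes vary together. Nearest to Cox7b2 were Efcab3 (r = 0.999), Cetn1, a centrin of the centriole (0.990), and Cep112 (0.989). Efcab3 had 24.8, 26.7, 12.8 and 23.6 CPM in labelled knockouts 1 to 4, against 19.7, 20.5, 19.8 and 21.1 CPM in wild types 1 to 4. Nearest to Cox6b2 were Rtca (0.997), Nudt18 (0.993) and Ndufa12, a subunit of complex I of the respiratory chain (0.991). Nearest to Cyct were Grm6 (0.986), Psmg2 (0.971) and Aurkaip1 (0.964), and nearest to Cox8c were Runx2os3 (0.990), Fam151b (0.984) and Pfdn5 (0.980). For Cox4i2 they were Pitpna (0.969), Pced1a (0.964) and Rbm19 (0.961), where counts of 10 to 26 set much of its pattern.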

How the data were processed

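The RNA-seq data are of adult testes of mice, 4 libraries with an Ak9-/- label and 4 of wild type. The deposited values are raw gene counts made by the authors, who used Trimmomatic, STAR and featureCounts with the mouse build GRCm39, per the submitters' processing notes. Tool versions and strand setting were not stated in the sources available. The notes also name DESeq2. No batch is given in the labels, and 0 sample columns could not be mapped.

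Genes were tested with edgeR 4.0.16 (quasi-likelihood test, TMM scaling, filterByExpr with a minimum count of 10 and a minimum total of 15, Benjamini-Hochberg adjustment over 21805 genes, threshold 0.05), after the same steps were tested on simulated data. The simulated data had the same spread setting for every gene and library, unlike these data. They checked that the steps run correctly, and not the power or error rate here. Levels are TMM-scaled CPM, and TPM uses exon lengths from GENCODE M21, which covers 98.9% to 99.6% of counts and is of an older build than the counts. An isoform ratio was taken on counts, on the log2 scale after adding 0.5 to each count for tests, with a two-sided exact permutation test over the 70 assignments of libraries and adjustment over the 5 ratios. Wilson intervals of 95% cover counting error only.

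The members, the gene lists and the named genes were chosen with earlier results of these data known. Named were all 10 isoforms, up to 3 genes with the smallest p from each pathway list where none was called, and the 3 genes most alike to each testis-side isoform among those with a symbol and a mean of at least 1 CPM. Alternatives were RLE scaling, no low-count filter, a filter at 1 CPM, limma-voom 3.58.1 with and without quality weights, DESeq2 1.42.0, a replicate block, a pseudocount of 2, adding close copies and leaving out each library. Scaling per total count and TPM scaling were added after the data were seen. Same-numbered libraries had correlated deviations of 0.13, 0.05, -0.05 and 0.04, so the numbers were not taken to pair them. Libraries of a group differed beyond sampling noise, with at least 4.52 chi-square per gene.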

Additional observations from a re-analysis of the deposited data

Results flagged for a closer look

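Within the groups of 4 libraries, 30 sets of values were examined for a library far from the other 3, and chance marks about 1 in 20 such sets. Wild type 1 stood apart from the other wild types for Cox8c, at 322 CPM where the others were at 271 to 278 CPM. Labelled knockout 3 stood apart from the other libraries labelled knockout in the Cox4i2 to Cox4i1 ratio, at -7.41 on the log2 scale where the others were at -8.17 to -8.15. That ratio rests on 26 Cox4i2 counts in labelled knockout 3 and 14 to 19 in the others.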

How the results depend on the processing

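The isoforms gave 0 calls in every setting with a test, with all 10 tested except under the filter at 1 CPM, where Cox4i2 dropped out and 9 were tested. Over all genes the 4 calls (4 higher, 0 lower) became 26 (16 higher, 10 lower) without the low-count filter, 46 (23 higher, 23 lower) with DESeq2 and 14 (9 higher, 5 lower) with limma-voom quality weights. Leaving out 1 library gave 3 to 35 calls, 3 to 23 higher and 0 to 24 lower, with 33 without labelled knockout 1, 35 without labelled knockout 3 and 33 without labelled knockout 4. With the replicate block there were 4 calls, and the ratio differences were unchanged, with exact sign-flip permutation p of 0.25 to 0.75 where 0.125 is the smallest possible. Leaving out 1 library moved the log2 ratio difference, labelled knockout minus wild type, over 0.10 to 0.43 for Cyct over Cycs, 0.07 to 0.38 for COX6B, -0.022 to 0.30 for COX7B, 0.10 to 0.51 for COX8 and -0.016 to 0.38 for COX4. The COX7B difference was below 0 without labelled knockout 2, labelled knockout 4 or wild type 1, and the COX4 difference without labelled knockout 3 or wild type 4. Single log2 fold changes crossed 0 for Cycs (-0.17 to 0.071), Cox7b (-0.19 to 0.074) and Cox7b2 (-0.011 to 0.18). Scaling per total count or in TPM changed the sign of 0 of the 10 fold changes. The cause of these changes was not tested. Cox4i2, at 10 to 26 counts, is limited by depth.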
